A study of Mus musculus with 36 samples.

Results

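Mouse chromosome 11 was described through its replication timing (RT) domains, stretches of the chromosome that share an early (E), middle (M) or late (L) state in S phase. Its members are all domains on this chromosome in 3 maps, 123 of 2625 domains in CH12 cells, 113 of 2661 in primary B cells and 91 of 2151 in mouse embryonic fibroblasts (MEFs), 327 of 7437 in all. The chromosome was selected on its share of E bins in these same maps. That share is therefore given as a description, with no test. The label of earliest chromosome held for the E share in all 3 maps. By the lowest L share it held in the CH12 map alone, as chromosome 19 had the lowest L share in primary B cells and MEFs.

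The assay was Repli-seq. Cells were given BrdU for 2 h, fractions of 50000 cells in early or late S phase were sorted, and the newly made DNA was sequenced. The series holds 36 libraries in 7 groups, and the maps of CH12 cells and primary B cells rest on 8 of them, 2 early and 2 late libraries each. CH12 is a mouse B lymphoma line, used here as a single clone. The cells used here were the infection control, carrying a lentiviral short hairpin RNA against LacZ (shLacZ), a bacterial gene that mouse cells lack, with puromycin selection. The primary B cells were activated splenic B cells of wild-type (WT, Rif1+/+) mice. The label text on growth names stimulation with IL4, CD40 and TGF beta and is shared by all samples, so which agents each culture received was not settled here. The age of the mice is not given in the sources used here. The map named MEF WT is tied by the labels to no sample of this series, and the study's dataset list credits WT MEF Repli-seq to an earlier deposit. The other groups, with Rif1 or Mcm6 perturbed, were not analysed here.

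Replication in mammalian cells proceeds by domains, often megabases long, whose origins fire at similar times. Early domains are usually rich in genes, in GC bases and in active chromatin, and late domains are usually gene-poor and often lie at the nuclear lamina. Part of the genome keeps its timing in nearly all cell types, and part changes during differentiation, commonly around genes that a lineage uses. Timing is related to transcription but is not a measure of it, and no transcript level enters the results here.

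The stretches described below are shown first by the sequence next to 6 gene starts. They were chosen from starts in E in all maps, in L in all maps and in states that differ between maps. Not every frequent pattern is shown. Bins in M in all maps (7.99%) and bins in L in both B cell maps and M in MEFs (8.09%) have no gene here. Each sequence is the 250 bases before the annotated start, 5′ to 3′ on the strand of the gene, from the NCBIM37 (mm9) reference, with CpG dinucleotides in capitals. Rpa1, a subunit of the single-strand DNA-binding complex, started in E in all maps. Ikzf1, the lymphoid transcription factor Ikaros, started in E in both B cell maps and in M in MEFs. Ebf1, a factor that specifies the B lineage, and Hoxb4, a homeobox factor of axial patterning, started in M in CH12 cells and in E in the other maps. Ccl2, a chemokine that attracts monocytes, started in L, M and E in CH12 cells, primary B cells and MEFs. Car10, a carbonic anhydrase-related protein, started in L in all maps.
Rpa1, chr11:75161827-75162076, minus strand: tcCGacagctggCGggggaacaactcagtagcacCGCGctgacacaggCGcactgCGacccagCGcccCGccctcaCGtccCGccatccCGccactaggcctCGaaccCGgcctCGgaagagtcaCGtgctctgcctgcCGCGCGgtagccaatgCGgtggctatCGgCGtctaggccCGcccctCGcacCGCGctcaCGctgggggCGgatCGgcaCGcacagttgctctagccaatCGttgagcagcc
Ikzf1, chr11:11584756-11585005, plus strand: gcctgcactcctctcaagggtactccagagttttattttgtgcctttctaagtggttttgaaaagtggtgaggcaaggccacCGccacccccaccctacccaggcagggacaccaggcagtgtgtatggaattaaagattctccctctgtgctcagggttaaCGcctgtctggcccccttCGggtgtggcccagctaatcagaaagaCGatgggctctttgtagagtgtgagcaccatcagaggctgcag
Ebf1, chr11:44430569-44430818, plus strand: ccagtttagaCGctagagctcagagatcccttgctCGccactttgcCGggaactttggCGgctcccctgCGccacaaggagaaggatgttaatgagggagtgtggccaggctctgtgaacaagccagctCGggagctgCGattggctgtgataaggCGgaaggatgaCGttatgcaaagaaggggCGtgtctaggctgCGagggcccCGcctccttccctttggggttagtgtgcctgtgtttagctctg
Hoxb4, chr11:96177748-96177997, plus strand: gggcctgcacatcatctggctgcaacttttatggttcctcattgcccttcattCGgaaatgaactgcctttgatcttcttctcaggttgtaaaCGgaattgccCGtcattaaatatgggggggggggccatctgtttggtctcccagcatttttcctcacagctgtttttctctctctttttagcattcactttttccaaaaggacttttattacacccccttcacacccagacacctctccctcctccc
Ccl2, chr11:81848823-81849072, plus strand: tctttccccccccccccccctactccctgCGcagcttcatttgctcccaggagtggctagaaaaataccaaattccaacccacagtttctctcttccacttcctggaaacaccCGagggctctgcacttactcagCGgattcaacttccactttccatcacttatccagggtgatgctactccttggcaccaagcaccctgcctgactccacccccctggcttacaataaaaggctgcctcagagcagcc
Car10, chr11:92959092-92959341, plus strand: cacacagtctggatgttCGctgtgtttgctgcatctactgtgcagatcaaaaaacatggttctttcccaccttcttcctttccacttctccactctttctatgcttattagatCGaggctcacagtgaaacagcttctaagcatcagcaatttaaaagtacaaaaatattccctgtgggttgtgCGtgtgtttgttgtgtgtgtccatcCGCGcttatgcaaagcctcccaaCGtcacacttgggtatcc

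The Rpa1 sequence held 30 CpG dinucleotides at 69.6% GC. The Ebf1 sequence held 12, the Car10 sequence 6, the Ikzf1 sequence 4, and the Hoxb4 and Ccl2 sequences 3 each. GENCODE lists the outermost transcript end as the start of a gene, so these windows need not be the promoter in use.

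On chromosome 11 the E state covered 46.9% of 20 kb bins in CH12 cells, 51.9% in primary B cells and 52.7% in MEFs. The other 18 autosomes with chromosome 11 set aside averaged 22.7% ± 5.89 (SD over chromosomes, n = 18), 28.9% ± 5.63 and 32.0% ± 5.03 in the same order. The next highest chromosome was 17 in CH12 cells, at 32.2%, and 19 in the other maps, at 42.2% and 41.8%. The lead of chromosome 11 was thus 14.8 percentage points in CH12 cells, 9.65 in primary B cells and 10.9 in MEFs. Each condition has 1 map made from merged replicates, so no replicate error or test is available for any value here.

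**Figure D1:**
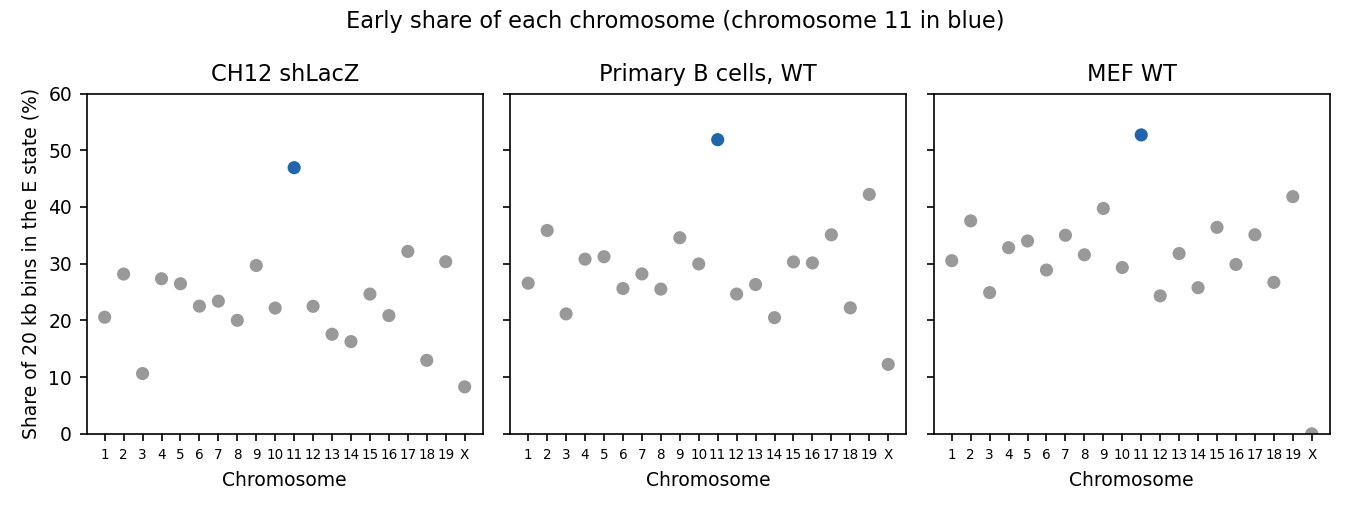
Share of 20 kb bins in the E state (vertical axis, %) for each chromosome (horizontal axis) in CH12 shLacZ cells, WT primary B cells and WT MEFs; each point is 1 chromosome of 1 map and blue marks chromosome 11. Chromosome 11 stands at 46.9%, 51.9% and 52.7%, above every other chromosome of the same map, and X is at 0% in the MEF map.

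The L state covered 30.8% of chromosome 11 in CH12 cells, 22.6% in primary B cells and 16.9% in MEFs. The other autosomes averaged 49.2%, 38.0% and 28.5%. Chromosome 19 had less L than chromosome 11 in primary B cells, at 16.6%, and in MEFs, at 15.4%, with 38.0% in CH12 cells. The M state took the remainder, 22.3%, 25.6% and 30.4% of chromosome 11. The first 3 Mb of the chromosome are unknown bases in the reference, which the CH12 and MEF maps placed in M and the primary B map left without a state.

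Chromosome 11 also stood at or near the top of the genome in gene density and GC content. Its 13.9 protein-coding genes per Mb ranked 2 of 20 chromosomes, behind chromosome 7 with 14.6. Its GC content of 43.8% was the highest of the 20. Chromosome 7 had 23.4% of its bins in E in CH12 cells, 28.2% in primary B cells and 35.0% in MEFs, so its higher gene density came with less E. Over the 20 chromosomes, the E share and GC content had a Pearson r of 0.86 in CH12 cells, 0.82 in primary B cells and 0.89 in MEFs (Spearman's rho 0.81, 0.72 and 0.83). For the E share and gene density r was 0.76, 0.76 and 0.72 and rho 0.83, 0.78 and 0.84. These are descriptions over chromosomes of the same maps and include chromosome 11. As E was named as the state with more protein-coding starts per Mb, a positive relation of the E share to gene density is partly built in.

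The E share of chromosome 11 was also read within classes of GC content. As the chromosome was chosen on its E share in these maps, these values are a description, and the classes are broad, the highest reaching from 45.5% to 57.6% GC. All autosomal bins with a state in every map were put into 5 classes of equal size by GC content. In the class of highest GC, 78.5% of chromosome 11 bins were E in CH12 cells against 61.7% on the other autosomes, 81.1% against 66.7% in primary B cells and 86.6% against 75.6% in MEFs. In the class of lowest GC the shares were 9.76% against 2.57%, 10.6% against 4.18% and 9.92% against 3.65%. The E share of chromosome 11 was higher in each of the 5 classes in each map. The highest GC class held 36.5% of chromosome 11 bins and 19.2% of the bins of other autosomes.

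**Figure D2:**
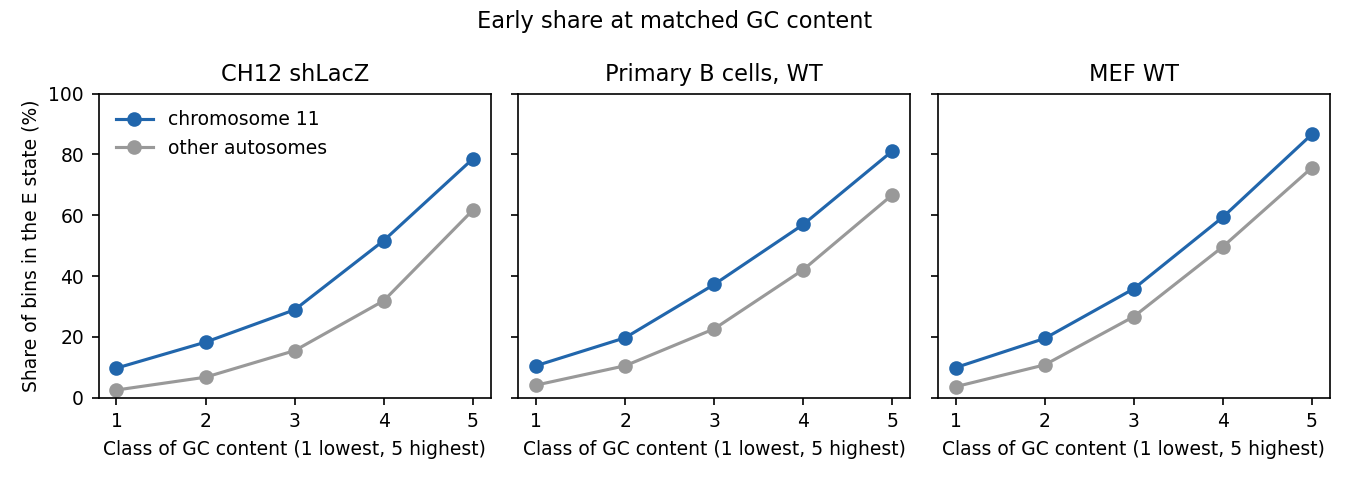
Share of 20 kb bins in the E state (vertical axis, %) in 5 classes of GC content (horizontal axis, 1 lowest to 5 highest) for chromosome 11 (blue) and the other autosomes (grey) in the 3 maps. Blue lies above grey in every class of each map, for example at 78.5% against 61.7% in class 5 of the CH12 map.

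In the CH12 map chromosome 11 held 33 E domains, 62 of M and 28 of L. The same counts were 34, 57 and 22 in primary B cells and 32, 46 and 13 in MEFs. The number of E domains was thus similar in the 3 maps, while the number of L domains in MEFs was under that in either B cell map. The other chromosomes also had the fewest L domains in MEFs, 488 beside 722 in CH12 cells and 642 in primary B cells. Median E domain length was 1180 kb in CH12 cells, 1000 kb in primary B cells and 1170 kb in MEFs. On the other chromosomes it was 680, 740 and 940 kb. Median M length on chromosome 11 was 290, 400 and 600 kb, beside 380, 450 and 640 kb on the other chromosomes. Median L length was 1460, 1050 and 860 kb, beside 1100, 900 and 960 kb. The longest E domains of chromosome 11 reached 6220 kb in CH12 cells, 6660 kb in primary B cells and 7220 kb in MEFs.

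E and L domains touched nowhere on chromosome 11 in any map, which the naming of the states fixes, since the states that never touch were named E and L. In CH12 cells 36 of the M stretches joined E to L (median 280 kb), 14 lay between 2 E domains (median 310 kb) and 10 between 2 L domains (median 360 kb). In primary B cells these numbers were 26, 20 and 9, and in MEFs 22, 20 and 2. M dips between E domains had a median of 610 kb in primary B cells and 650 kb in MEFs. The authors smoothed RT over 300 kb, and 31 of 62 M domains in CH12 cells were shorter than that, compared with 8 of 57 in primary B cells and 4 of 46 in MEFs.

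**Figure D3:**
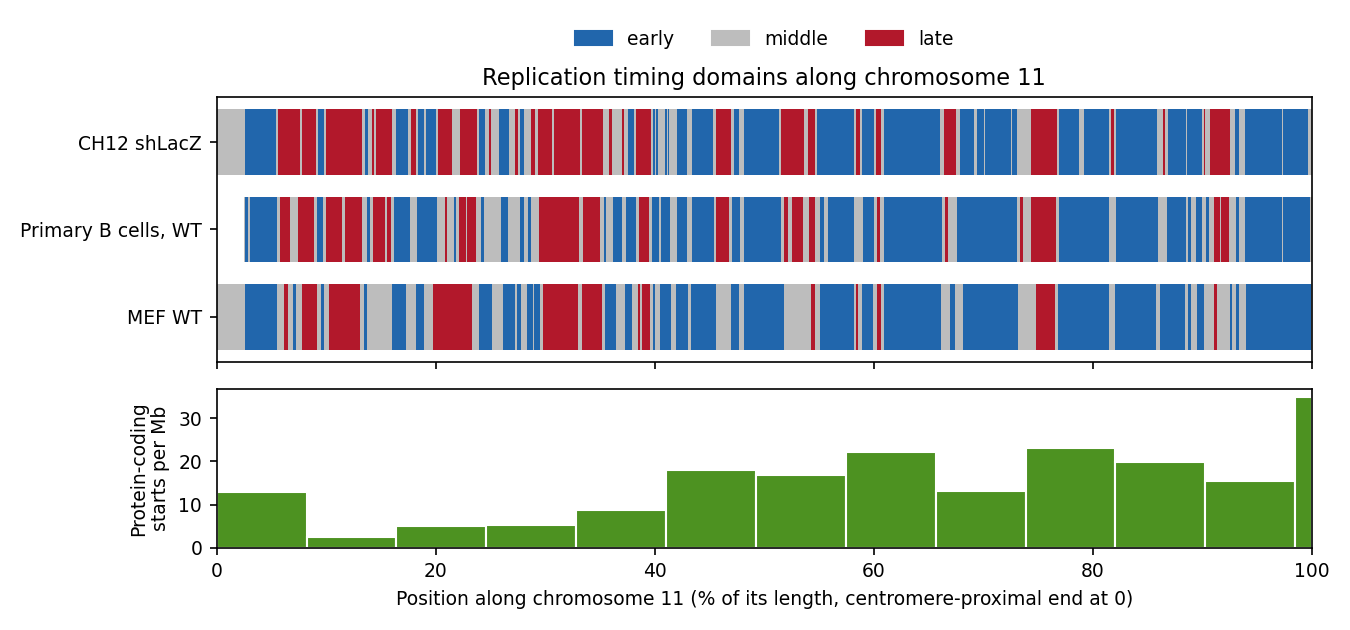
Domains along chromosome 11 (horizontal axis, % of its length from the centromere-proximal end) in the 3 maps, coloured blue for E, grey for M and red for L (top), and protein-coding gene starts per Mb in windows of 10 Mb, the last one shorter (bottom). Red stretches lie mostly in the first 50% of the length, and the longest blue stretches, with up to 7220 kb in MEFs, lie beyond it, where full windows of 10 Mb hold up to 23 starts per Mb and the shorter window at the end holds 34.9.

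The early share was spread unevenly along the chromosome. In the centromere-proximal 3046 bins, E covered 28.7% in CH12 cells, 36.6% of the bins with a state in primary B cells and 36.0% in MEFs. In the distal 3047 bins it covered 65.1%, 66.4% and 69.3%. The distal part held 1149 of 1653 protein-coding starts and had 45.4% GC, against 504 starts and 42.1% in the proximal part. The window from 10 to 20 Mb was the lowest in E of all 10 Mb windows in each map, at 9.8%, 13% and 11%, and had 2.50 protein-coding starts per Mb. The window from 70 to 80 Mb had the highest share of bins with the same state in all maps, 90.6%, and the window from 20 to 30 Mb the lowest, 38.2%.

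A domain of over 6 Mb that was early in every map covered chr11:74260001-80480000. It was the longest E domain in CH12 cells and the next to longest in both other maps, where it ran over 6460 kb in primary B cells and 6440 kb in MEFs. It held 122 protein-coding starts. Among them were Pafah1b1, a regulator of the motor dynein, Prpf8, a core protein of the spliceosome, Ywhae, a 14-3-3 adaptor, Nf1, an inhibitor of RAS signalling, and Suz12, a subunit of the Polycomb complex PRC2. Genes of restricted expression, such as Slc6a4, the serotonin transporter, and Foxn1, a factor of thymic epithelium, lay in the same stretch.

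The next longest stretch in E in all maps, chr11:100040001-104560000, spanned 4520 kb and 135 starts. It ran from keratin genes such as Krt14, a keratin of basal epithelium, over Stat5a, Stat5b and Stat3, transducers of cytokine signals, to Brca1, a recombination repair gene, and Mapt, the microtubule protein tau of neurons. The stretch that followed in length, chr11:114520001-118480000, had 3960 kb, 115 starts and a GC content of 50.3%. It held Cd300 receptors of myeloid cells, Grb2, an adaptor downstream of receptor tyrosine kinases, Birc5 (survivin) and Tk1, a thymidine kinase. In MEFs it was part of a domain of 7220 kb and 200 starts that reached to within about 103.9 kb of the chromosome end.

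The 2 longest stretches in L in all maps were poor in genes. The interval chr11:37580001-40160000, 2580 kb, held no protein-coding start and overlapped no protein-coding gene, with 37.0% GC. The interval chr11:91140001-93260000, 2120 kb, held Kif2b, a kinesin, and Car10, whose upstream sequence is printed above. The longest stretches in M in all maps spanned 880, 760 and 620 kb, the first of them with Hlf, a PAR bZIP transcription factor, and Mmd.

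Between the B cell maps 79.9% of chromosome 11 bins had the same state (95% Wilson interval 78.8 to 80.9, for counting of bins only, as neighbouring bins are not independent). The same share was 71.5% for CH12 cells and MEFs and 74.3% for primary B cells and MEFs. On the other 18 autosomes the mean was 75.8% ± 3.79 (SD), 62.4% ± 4.51 and 68.6% ± 4.00. Chromosome 11 ranked 2 of 20 in each comparison. A chromosome on which 1 state prevails scores high in this measure, and by Cohen's kappa, which allows for the state shares, its rank was 3, 1 and 6, with kappa at 0.68, 0.55 and 0.58.

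Differences ran mostly toward earlier replication outside CH12 cells. In primary B cells 973 of 5943 bins (16.4%) were earlier than in CH12 cells, beside 20.3% over all chromosomes, and 223 bins (3.75%) were later, beside 3.62%. In MEFs 1412 of 6093 bins (23.2%) were earlier than in CH12 cells, beside 30.5%, and 327 (5.37%) were later, beside 6.01%. Against primary B cells, MEFs were earlier in 1000 bins (16.8%), beside 20.7%, and later in 527 (8.87%), beside 10.7%. An E bin cannot become earlier, so a chromosome rich in E has fewer bins that can. Among bins not already E in the first map of a pair, the earlier share was 31.5% on chromosome 11 and 26.5% over all chromosomes for primary B cells against CH12 cells, 43.7% and 39.5% for MEFs against CH12 cells, and 35.0% and 28.9% for MEFs against primary B cells. Among bins not already L, the later share was 5.48% and 7.38%, 7.75% and 12.0%, and 11.5% and 17.6% in the same order. Many differences lay at edges. Without bins within 100 kb of an edge in either map, the share of all chromosome 11 bins that was earlier in primary B cells than in CH12 cells was 8.48% and the later share 1.44%. The 3 comparisons share maps with one another.

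Most changes were by a single step. The L bins of CH12 cells were L in primary B cells in 68.2% of cases, M in 31.3% and E in 0.426%. Over all chromosomes these shares were 73.6%, 25.2% and 1.26%. In MEFs the same bins of chromosome 11 were L in 49.7%, M in 43.2% and E in 7.09%, beside 56.7%, 37.4% and 5.86%. Of CH12 E bins, 94.3% were E in primary B cells and 91.3% in MEFs, beside 90.8% and 83.2% over all chromosomes. No bin of chromosome 11 passed from E in CH12 cells to L in primary B cells, beside 0.0767% of CH12 E bins over all chromosomes. From E in CH12 cells to L in MEFs 17 bins passed (0.595%), beside 0.570% over all chromosomes. E domains of CH12 cells were wholly E in primary B cells in 19 of 33 cases and wholly E in MEFs in 13 of 33. L domains of CH12 cells were wholly L in primary B cells in 0 of 28 cases and in MEFs in 2 of 28, whereas 15 of 22 L domains of primary B cells and 10 of 13 of MEFs were wholly L in CH12 cells. The L stretches of the other maps thus lay mostly inside longer L stretches of CH12 cells. These domain counts are given for chromosome 11 only, and by bins the nesting was not particular to it. Of its L bins in primary B cells 95.5% were L in CH12 cells, and of those in MEFs 90.8%. Over all chromosomes these shares were 96.2% and 92.4%.

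Runs of differing bins were short for the most part. Between the B cell maps there were 112 runs with a median of 140 kb, 87 of them shorter than the 300 kb smoothing span. Between CH12 cells and MEFs there were 88 runs, median 200 kb, and 54 were shorter. Edges of E domains in CH12 cells lay within 100 kb of an E edge in primary B cells in 33 of 66 cases (50.0%) and within 100 kb of one in MEFs in 23 of 66 (34.8%). On the other chromosomes these shares were 49.6% and 26.9%. L edges met less often, 10 of 56 (17.9%) in primary B cells and 6 of 56 (10.7%) in MEFs, beside 25.8% and 15.2% elsewhere. Edge shares rise with the tolerance by construction and are given for other tolerances below.

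Written in the order CH12 cells, primary B cells and MEFs, 2516 of 5943 bins (42.3%) were EEE, 475 (7.99%) MMM and 795 (13.4%) LLL. On the other chromosomes EEE took 16.95%, MMM 11.1% and LLL 26.6%. In all, 63.7% of bins had the same state in every map, beside 54.6% elsewhere. MEFs stood apart from both B cell maps in 961 bins (16.2%), CH12 cells from both others in 630 (10.6%) and primary B cells in 418 (7.03%), and all 3 states occurred in 148 (2.49%). On the other chromosomes these shares were 21.3%, 13.7%, 7.84% and 2.58%, so the order was the same there. On chromosome 11, CH12 cells apart were later than both others in 543 bins and earlier in 87. MEFs apart were earlier in 738 bins and later in 223. These direction counts are given for chromosome 11 only. By pairs of maps the lean was similar over all chromosomes. Of bins that differed between CH12 cells and primary B cells, 81.4% were earlier in the latter, beside 84.9% over all chromosomes. For MEFs against CH12 cells these shares were 81.2% and 83.5%, and for MEFs against primary B cells 65.5% and 65.8%.

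**Figure D4:**
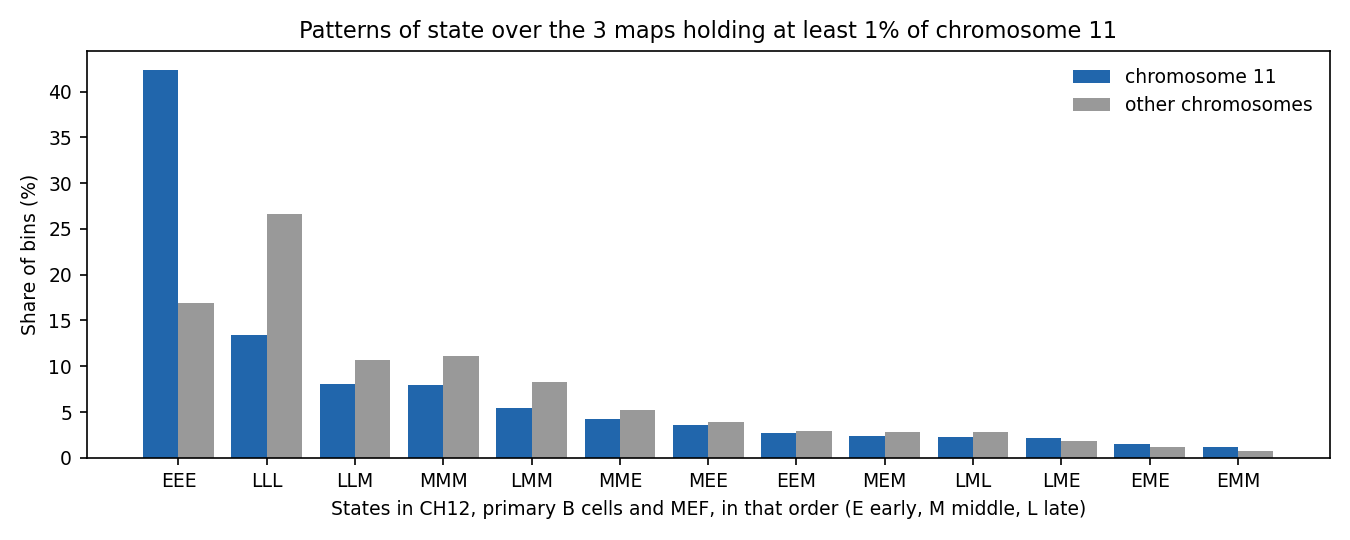
Share of bins with a state in all maps (vertical axis, %) for each pattern of states that held at least 1% of chromosome 11 (horizontal axis, states in CH12 cells, primary B cells and MEFs in that order), on chromosome 11 (blue) and on the other chromosomes (grey). EEE stands at 42.3% on chromosome 11 and 16.95% elsewhere, and LLL at 13.4% and 26.6%.

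Rel, Bcl11a and Ikzf1 started in the longest stretches that were early in both B cell maps and later in MEFs, beside genes of other kinds, and 13 of the 17 genes on the B cell list were E in all maps. The longest of all, chr11:23340001-24020000, had 680 kb in E in both B cell maps and M in MEFs. It held Rel, the c-Rel subunit of NF-kappaB, and the start of Bcl11a, a zinc finger factor needed for lymphoid development, together with Pex13, a peroxisome gene, Pus10, a pseudouridine synthase, Papolg, a poly(A) polymerase, and Ahsa2. The adjoining chr11:24020001-24360000, 340 kb, was E in both B cell maps and L in MEFs. It was the single run of chromosome 11 with that pattern and overlapped no other protein-coding gene than Bcl11a, whose body of 96.1 kb lay 56% in L and 44% in M in MEFs. The next stretches were chr11:11260001-11640000 with Ikzf1, whose upstream sequence is printed above, and Zpbp, a zona pellucida-binding protein of sperm, and chr11:33820001-34180000 with Kcnip1 and Kcnmb1, subunits that modulate potassium channels, Foxi1, a forkhead factor, Lcp2 (SLP-76), an adaptor of immune receptors, and the end of Dock2, an exchange factor of leukocyte migration. The annotated end of Ikzf1, at 11672929, lay beyond its stretch, while most of its body was M in MEFs. Kcnip1 fitted this pattern by its start only. Of its body of 364 kb, 25.6% lay in E in CH12 cells, 53.1% in primary B cells and 79.9% in MEFs. The whole E domain around Rel and Bcl11a in CH12 cells, 1020 kb with 9 starts, held no bin in E in MEFs.

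A second E domain of CH12 cells without an E bin in MEFs was chr11:48840001-49100000, 260 kb and 10 starts. It held Tgtp2 and Ifi47, interferon-inducible GTPases, Btnl9, a butyrophilin-like gene, and olfactory receptor genes. All 8 Schlafen genes, interferon-responsive genes of lymphoid and myeloid cells, lay between chr11:82764851-83028656 and were E in both B cell maps and M in MEFs.

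Ebf1 was middle in CH12 cells and early in primary B cells. This gene of 391 kb and the neighbouring Il12b, a subunit of interleukin 12, were covered in primary B cells by 1060 kb of E that held no E bin in CH12 cells, 51 bins being M and 2 L. In MEFs the start of Ebf1 lay in E, at the edge of a 1220 kb domain, and 87% of its body in M. The run with M in CH12 cells and MEFs and E in primary B cells, chr11:44480001-45080000, was the longest of that pattern, 600 kb, and overlapped Ebf1 alone. Smaller E domains of primary B cells without an E bin in CH12 cells held Pttg1 (securin), a regulator of sister chromatid separation, Vrk2, a kinase, and Map2k6, a MAP kinase kinase. A further such domain held the start of Slit3, a guidance protein, with 7.7% of its body, the rest of the gene being M in primary B cells. Timd4, a receptor for phosphatidylserine on macrophages, was in 1 of the 2 runs on the chromosome that were L in CH12 cells, E in primary B cells and M in MEFs.

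The Hoxb cluster was middle in CH12 cells and early in the other maps. All 10 Hoxb genes, from Hoxb13 to Hoxb1 over chr11:96055630-96229570, lay in a stretch of 480 kb that was M in CH12 cells. In primary B cells the stretch was part of an E domain of 5620 kb, and in MEFs of one of 5660 kb. It was the longest run in M in CH12 cells and E in both others. In CH12 cells it was bordered by E domains of 2240 and 2820 kb, so that M in the CH12 map was a dip in early DNA. Lhx1, a homeobox factor of kidney and head development, had the same pattern elsewhere on the chromosome.

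A group of CC chemokine genes lay in the longest stretch that was late in CH12 cells and early in MEFs. This stretch, chr11:81620001-82100000, 480 kb, was L in CH12 cells, M in primary B cells and E in MEFs. It held Ccl2, Ccl7, Ccl11, Ccl12 and Ccl8 and the start of Accn1, an acid-sensing ion channel of neurons. Ccl1, beside them, started in L in CH12 cells and in M in both other maps. Its annotated body spanned 129 kb, and most of that body lay in E in MEFs, like its neighbours. The other CC chemokine genes on the list, Ccl5, Ccl9, Ccl6, Ccl3 and Ccl4, lay further along the chromosome, at chr11:83339280-83478185, and were E in all maps. The next runs were chr11:8440001-8820000 with Tns3, a protein of cell-matrix adhesions, and chr11:43600001-43960000 with Adra1b, an adrenergic receptor. Of all protein-coding genes, 19 started in L in CH12 cells and in E in MEFs, none in L in primary B cells and in E in MEFs, and 0 in E in CH12 cells and in L in MEFs. Vrk2 and the predicted gene Gm6899 were the only starts in E in primary B cells and L in MEFs. These gene counts are given for chromosome 11 only. By bins, 7.09% of its CH12 L bins were E in MEFs, beside 5.86% over all chromosomes. Of L bins in primary B cells 0.298% were E in MEFs, beside 2.57%. Of E bins in primary B cells 1.10% were L in MEFs, beside 1.05%.

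Other stretches were earlier in CH12 cells than elsewhere. The 6 skeletal muscle myosin heavy chain genes Myh3, Myh2, Myh1, Myh4, Myh8 and Myh13 lay at chr11:66891802-67185088 and were E in CH12 cells and M in the other maps. Myh10, a nonmuscle myosin on the same list, was E in all. The longest run of this pattern, 580 kb, held Axin2, an inhibitor and target of WNT signalling. Egfr, the epidermal growth factor receptor, started in E in CH12 cells and MEFs and in M in primary B cells, and 59% of its body lay in M in MEFs.

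In other stretches MEFs were earlier than both B cell maps, or CH12 cells later than both others. The run chr11:32560001-33160000, 600 kb, was M in both B cell maps and E in MEFs and held Fgf18, a growth factor of bone and lung, Npm1 (nucleophosmin) and Tlx3, a homeobox factor of neurons. The longest runs late in both B cell maps and middle in MEFs were chr11:55600001-57000000 with the start of Gria1, an AMPA receptor subunit, and chr11:64000001-65260000 with Myocd, a coactivator of smooth muscle genes. Of the Gria1 body, 45.1% lay in M in primary B cells. Otx1 and Meis1, homeobox genes, and Sox9, a factor of cartilage, started in L in CH12 cells and in M in the other maps. They are 3 of 15 genes on the list of growth factor receptors and developmental regulators, 10 of which were E in all maps. On the list of 19 matrix and mesenchymal genes 13 were E in all maps, 3 were M in both B cell maps and E in MEFs, and 3 were L in both B cell maps and M in MEFs. In the opposite direction, Fancl, a ligase of the Fanconi anaemia repair pathway, started in M in both B cell maps and in L in MEFs, within an L domain of 4340 kb.

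Of the 1653 protein-coding starts on chromosome 11, 76.6% lay in E in CH12 cells, 80.0% in primary B cells and 79.1% in MEFs. On the other chromosomes the shares were 48.5%, 56.2% and 56.9%. The L state held 130 starts in CH12 cells, 39 in primary B cells and 29 in MEFs. Starts per Mb in CH12 cells numbered 22.1 in E against 9.46 in M and 3.46 in L, and in MEFs 20.4, 8.54 and 1.41. The naming of the states rests on gene density over the whole genome, so that this order is no separate result. In CH12 cells 42 of the 130 L starts lay in a single L domain of 340 kb, chr11:99480001-99820000, with keratin-associated protein genes and predicted genes among them, and outside it L held 2.37 starts per Mb.

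By gene starts the maps were more alike than by bins. The same state was found for 87.7% of starts in both B cell maps, 84.0% in CH12 cells and MEFs and 88.6% in primary B cells and MEFs. On the other chromosomes it was 77.8%, 69.0% and 73.9%. In all 3 maps 1335 starts (80.8%) had the same state, 1184 of them E, 130 M and 21 L. Among the 21 LLL genes were 9 olfactory receptor genes, Odz2 (teneurin 2), Sgcd, a sarcoglycan, and Shisa6.

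The gene lists on this chromosome fell into groups by their states. All members of the type 2 cytokine locus (10 genes, with Il4, Il13 and Il5), the alpha-globin locus (10 genes) and the Cd300 list (8 genes) started in E in all maps. So did the 8 genes of the ribosomal list, of which Rps6kb1 encodes a kinase and not a ribosomal protein. Of 17 B cell genes, 16 started in E in CH12 cells, 17 in primary B cells and 14 in MEFs. The genes that were not E in every map were Ikzf1, Rel, Bcl11a and Ebf1. Cd79b, a chain of the B cell receptor complex, Ikzf3 (Aiolos) and Xbp1, a factor of plasma cells, were E in MEFs too. Of 24 genes of replication, repair and mitosis, 20 started in E in CH12 cells, 22 in primary B cells and 19 in MEFs, with Trp53, Brca1, Rad51c, Top2a and Cdc6 in E in all. These shares stand beside 76.6%, 80.0% and 79.1% for all protein-coding genes.

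Olfactory receptor and keratin genes lay mostly outside E. Of 81 olfactory receptor genes, 12 started in E in CH12 cells, 17 in primary B cells and 8 in MEFs, and 49 were MMM. Of 49 keratin and keratin-associated genes, 14 started in E in each B cell map and 20 in MEFs. The type I keratin region changed state several times within about 1 Mb, from Krt222 to Krt10 in EEE, over keratin-associated genes in MMM and LMM, to Krt34 through Krt19 in MME and Krt9 through Krt42 in EEE. Of 8 immunity-related GTPase genes, 6 started in E in CH12 cells, 8 in primary B cells and 3 in MEFs. Reads in such families can map to several copies, and the authors kept unique alignments only.

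**Figure D5:**
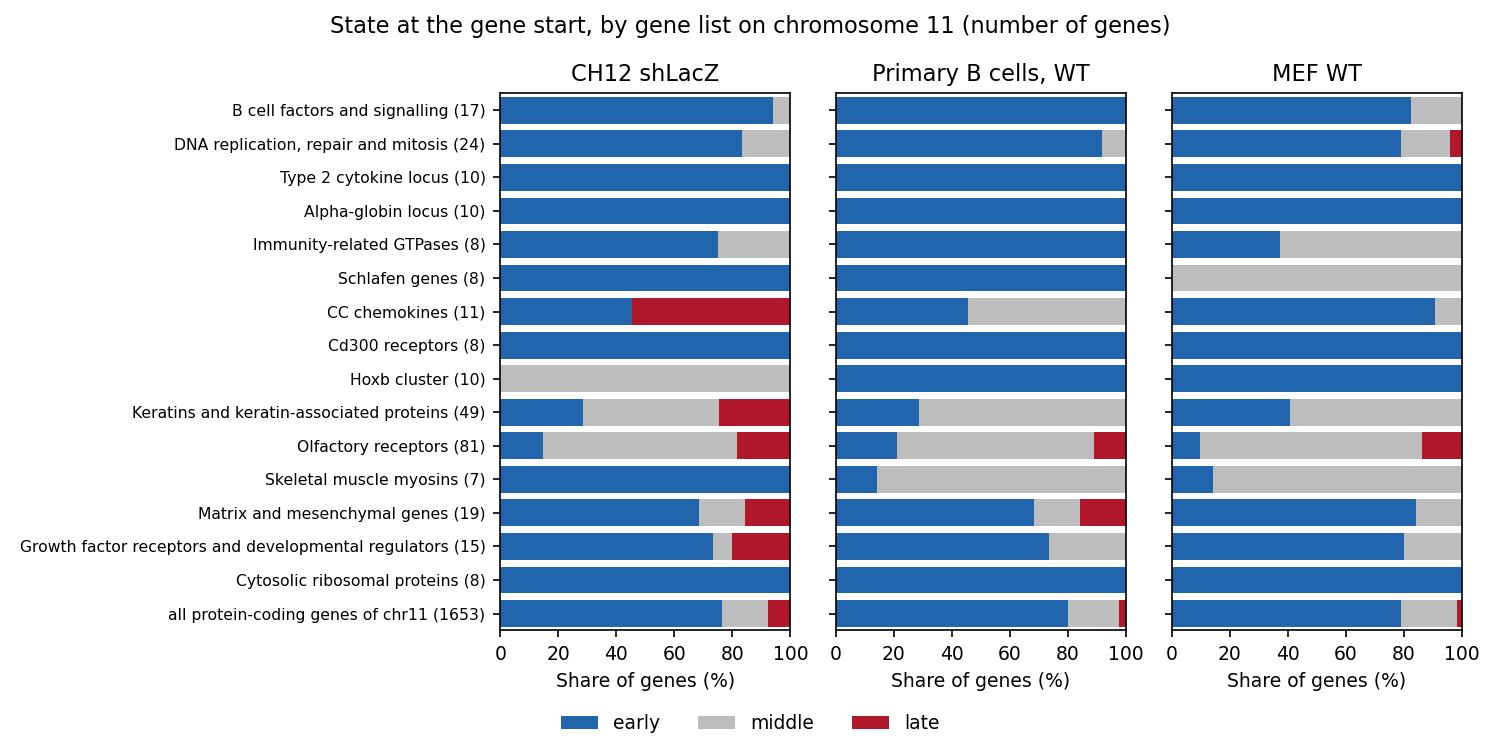
Share of genes (horizontal axis, %) starting in E (blue), M (grey) and L (red) for 15 gene lists and for all protein-coding genes of chromosome 11, with the number of genes in brackets, in the 3 maps. The Schlafen genes turn from blue in both B cell maps to grey in MEFs, the Hoxb cluster is grey in CH12 cells alone, and the list of all genes has 76.6%, 80.0% and 79.1% in blue.

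Of the 24 protein-coding genes longer than 300 kb, the 3 longest started in L in CH12 cells. Odz2 spanned 1229 kb and Sgcd 1093 kb, both LLL at their starts, and Accn1 spanned 1088 kb with the pattern LME at its start and 85.1% of its body in M in MEFs. Other long genes were early throughout at their starts, such as Bcas3 with 473 kb, Msi2, an RNA-binding protein, with 427 kb, and Rbfox3, a splicing factor of neurons, with 422 kb. Slit3, with 587 kb, started in L in CH12 cells and in E in the other maps, but 92.3% of its body lay in M in primary B cells and 30.6% in M in MEFs.

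GC content followed the states on chromosome 11. In CH12 cells it averaged 46.3% ± 4.02 (SD over bins) in E bins, 43.4% ± 3.55 in M bins and 40.2% ± 3.08 in L bins. In MEFs the values were 46.2% ± 3.93, 42.5% ± 3.06 and 38.4% ± 2.06. Bins that were L in all maps had 38.1% GC, bins late in both B cell maps and middle in MEFs 41.5%, and bins that were L, M and E in turn 43.9%. Bins early in all maps had 46.7%. CpG dinucleotides numbered 12.3 per kb of E bins in CH12 cells, 9.06 per kb of M bins and 6.5 per kb of L bins.

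Promoter sequence differed in the same direction, with exceptions among the smaller groups. A promoter window of 250 bases before to 50 after the start was called CpG-rich where GC was over 50% and the CpG count was over 0.6 of that expected from its C and G content. By this measure 47.2% of the 1653 chromosome 11 windows were CpG-rich, beside 41.3% of 20697 elsewhere, and 96.6% and 95% held at least 1 CpG, the motif CG being the same on both strands. EEE starts were CpG-rich in 53.9% of 1184 cases and MMM starts in 19.2% of 130. The LMM group, with keratin-associated genes, had 13.2% of 68. MEE starts, among them the Hoxb cluster, had 57.4% of 47, with a median of 22 CpG. LLM starts, with Gria1 and Myocd, had 8 of 16, and LLL starts 6 of 21. In primary B cells CpG-rich windows made up 38.5% of 39 L starts, beside 14.9% of L starts elsewhere.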

How the data were processed

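Repli-seq libraries were aligned by the authors to mm9 with bwa mem after trim_galore (per the submitters' processing notes Trim Galore 0.6.5, BWA 0.7.17, SAMtools 1.9 and bedtools 2.29.2). According to the study's methods, they kept unique alignments, merged replicates and removed duplicates. They took log2 early over late ratios by deepTools per 20 kb window, applied loess smoothing over 300 kb and called 3 states by a hidden Markov model. The deposited files hold the authors' domains with a state number (unit: other) and no RT value, read count or replicate. The methods give this segmentation for all conditions without naming MEFs. Smoothing blurs edges, and the RT values that separate states can differ between maps, so that part of a difference between maps may be one of thresholds. That part was not tested.

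State numbers carry no names in the files. Some states never shared a border on any chromosome of a map. The state between such a pair was taken as M, and of the others the one with more protein-coding starts per Mb as E, so that 2, 1 and 0 are E, M and L in the B cell maps and 0, 2 and 1 in the MEF map. Chromosome ends in all maps matched the lengths of NCBIM37 on 20 of 20 chromosomes. Domains were cut into 20 kb bins, 6093 on chromosome 11. Genes were taken from GENCODE M1 on the same assembly and placed by the bin of their start. Sequence was read from NCBIM37. Steps were tested on simulated data. Scripts ran under Python 3.11.15 with pandas 2.3.3 and numpy 2.4.6, correlations came from scipy 1.17.1, and plots were drawn with matplotlib 3.10.9.

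The chromosome, the 15 gene lists and the rules were chosen with earlier results of these data known. Of 116 listed symbols, 108 were found on chromosome 11. Named stretches were the longest domains of E and L per map and the 3 longest runs of each pattern of states, and named genes were those starting in or overlapping them, list members and genes over 300 kb. Among the genes of a stretch, those named in the text were picked after their states were seen. A further list and some named stretches and genes are not reported here. Depth per library cannot be read from the domain files, Wilson intervals at 95% cover counting of bins only, and no test was made, as each condition has 1 map.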

Additional observations from a re-analysis of the deposited data

How the results depend on the processing

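How far values moved depended on the setting. Of 186 values under the alternatives, 142 stayed within the counting interval of the value reported or within 1.5 times a count, and 44 did not. Among the 142 were 27 values with domains of at least 100 kb and 18 with domains joined across 40 kb. Those settings could hardly change a value, as few or no domains are that short. Another 53 of the 142 came from placing genes by their body, most of them counts of list members. Leaving out bins near an edge moved 19 values and left 2 within these limits. A tolerance of 40 kb for edges moved 5 and left 1, and one of 200 kb moved 4 and left 2. No paired analysis was possible because the replicates had been merged into 1 map per condition and the maps carry no replicate numbers. No replicate was left out, since none is held separately. The planned share of soft-masked bases was not run, since the reference used here holds no soft-masking.

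Without bins within 100 kb of an edge, the E share was 51.7% in CH12 cells, 56.7% in primary B cells and 55.7% in MEFs, the M share 15.7%, 20.1% and 27.1%, and the L share in CH12 cells 32.6%. Bins with the same state then made up 90.1% for the B cell maps, 80.5% for CH12 cells and MEFs and 82.0% for primary B cells and MEFs. Bins earlier in primary B cells than in CH12 cells fell to 8.48% and later ones to 1.44%. The shares earlier and later in MEFs were 16.2% and 3.31% against CH12 cells and 12.1% and 5.91% against primary B cells. EEE rose to 59.0% and LLL to 17.2%, and MMM fell to 4.35%. Leaving out bins removes M by construction, since M stretches are the shortest. Without bins of unknown bases the M share was 20.3% in CH12 cells and 28.7% in MEFs, and the E share in MEFs 54.0%. Without the first 3 Mb the same shares were 20.3%, 28.7% and 54.0%.

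With a tolerance of 40 kb, E edges of CH12 cells met those of primary B cells in 24.2% and of MEFs in 19.7%, and E edges of primary B cells met those of MEFs in 14.7%. With 200 kb these were 68.2%, 51.5% and 60.3%. L edges of CH12 cells and primary B cells met in 5.36% at 40 kb and 41.1% at 200 kb, and those of primary B cells and MEFs in 2.27% at 40 kb. Counting all 2953 annotated genes, E starts made up 71.5%, 75.3% and 75.1% in CH12 cells, primary B cells and MEFs, and L starts 11.1%, 5.49% and 4.17%. With 500 bases on both sides of the start, CpG-rich windows among E starts made up 56.2%, 55.8% and 56.4%. Domain counts and median lengths stayed within 1.5 times under both alternatives, which was nearly fixed in advance. No domain was shorter than 80 kb, so joining across 40 kb could change none. Leaving out domains under 100 kb lowered the M count from 62 to 61 in CH12 cells and from 57 to 56 in primary B cells. Placing genes by their body changed the E count of 1 list and map by more than 1.5 times, the myosin genes in MEFs, from 1 to 2.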
